A study of Mus musculus with 2 samples.

Results

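The platelet-derived growth factor (PDGF) genes considered here are the 4 ligand genes Pdgfa, Pdgfb, Pdgfc and Pdgfd and the 2 receptor genes Pdgfra and Pdgfrb, 6 of the 32285 genes counted, chosen by their symbols. They were measured by droplet-based 3′ single-cell RNA sequencing in dissected mitral valve leaflets of mouse embryos aged E17.5, with leaflets of 3-4 hearts pooled per genotype. The control pool was wild type. The mutant pool carried Nfatc1-Cre and was Dicer loxp/loxp, a genotype in which Cre from the Nfatc1 gene, active in endocardium and the valve endothelium made from it, recombines the gene for DICER1, the enzyme that cuts microRNA precursors. Each genotype is 1 library, so genotype, pool and library preparation cannot be told apart, no test between genotypes was possible and every interval below covers counting error only.

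PDGF ligands are dimers that bind 2 receptor tyrosine kinases. PDGF-A and PDGF-C act mainly through PDGFRα, which marks many mesenchymal cells, and PDGF-B and PDGF-D through PDGFRβ, which marks pericytes and smooth muscle. PDGF-B released by growing vessels draws PDGFRβ-bearing mural cells to the endothelium, and PDGF-A with PDGFRα takes part in forming the mesenchyme of the heart valves.

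After filtering, the control library held 10347 cells with a median of 5671 unique molecular identifiers (UMIs, counted molecules) and the mutant library 6190 cells with a median of 9490.5. The cells fell into 20 clusters, named from marker genes and called "-like" for that reason. The 6 endothelial-like clusters comprised valve endothelial-like cells (cluster 3, led by Plvap and Emcn with Npr3; 1201 control and 287 mutant cells), coronary capillary-like cells (clusters 1 and 6, Fabp4 and Gpihbp1; 1875 and 1640), arterial-like cells (cluster 8, with Cxcl12, Sox17 and Gja4; 335 and 371) and small clusters led by Vwf or by lymphatic genes. Mural-like cells formed cluster 7 (Rgs5, Fabp7; 464 and 431 cells), and stromal-like cells formed 5 clusters (5177 and 2487 cells). The pools were not alike in sex. Cells with an Xist UMI and none of 4 Y-linked genes, termed female-type, were 93.5% of the control and 42.5% of the mutant library, and male-type cells, the opposite case, were 0.00966% and 37.1%. Dicer1 stood at 90.3 counts per 1000000 UMIs (CPM) in control and 39.9 in mutant valve endothelial-like cells, a log2 ratio of -1.17 (95% interval -1.47 to -0.89). Its ratio was -0.36 in capillary-like, -0.33 in stromal-like, -0.08 in mural-like and -0.07 in arterial-like cells, and Nfatc1 stood at 129 and 158 CPM in valve endothelial-like cells. Calls of doublets took 3.83% and 3.33% of cells where 8.61% and 5.12% were expected, and 11 cell barcodes were shared between the libraries among the kept cells.

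Since the mutant targets the enzyme that makes mature microRNAs, the 3′ UTRs of the 6 genes (GENCODE M21, the longest per gene) were searched on the transcript strand for the heptamer that pairs with bases 2 to 8, the seed, of each of 16 microRNA families. The family shared by most of them was miR-29. Its heptamer TGGTGCT lay in the 3′ UTRs of Pdgfa, Pdgfb, Pdgfc, Pdgfra and Pdgfrb, 5 of the 6 genes, and in 14.1% of all 21127 3′ UTRs. The UTRs of the 6 genes, at 1203 to 3115 bases, were all longer than the median of 1085, and a longer UTR holds more heptamers. The mature miR-29a-3p (RefSeq) is shown first with its seed in capitals, followed by the matches of Pdgfa, Pdgfb, Pdgfc and Pdgfra in 30-base windows of the transcript with the heptamer in capitals. The Pdgfrb window is not shown.
miR-29a-3p: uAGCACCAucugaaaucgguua
Pdgfa: catactatgtaTGGTGCTtcattgccaatg
Pdgfb: cggacggccaaTGGTGCTtccctcaccccg
Pdgfc, first match: cccaagaaataTGGTGCTggtgtggagatt
Pdgfc, second match: tcttccttgtaTGGTGCTagagcttagcgt
Pdgfra, first match: tgagaccacaaTGGTGCTgttgaatgaagg
Pdgfra, second match: tatgaactgccTGGTGCTcttgaatagtca

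The second Pdgfc match was followed by an A, the longer form of the match that 2.99% of all 3′ UTRs hold. Pdgfb was the only one of the 6 with the let-7 heptamer CTACCTC, present in 10.1% of 3′ UTRs, and the let-7 seed and the Pdgfb window are given for comparison.
let-7a-5p: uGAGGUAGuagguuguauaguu
Pdgfb: ggttcatttctCTACCTCcactctgtgtct

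Over the 16 families, Pdgfra matched 9, Pdgfc 6, Pdgfrb 3, Pdgfb 2 and Pdgfa and Pdgfd 1 each, the Pdgfd match being the miR-26 heptamer TACTTGA. A match describes these letters only. No level of a mature microRNA was measured here.

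The ligand genes divided by cell class. Pdgfb, the ligand of vessel endothelium, lies on chromosome 15 (GRCm38, 79995874 to 80014977, minus strand). It stood at 275 CPM in control and 291 in mutant arterial-like cells and at 182 and 184 in capillary-like cells. Valve endothelial-like cells, although endothelial by their markers, held only 21.8 and 25.6 CPM, mural-like cells 9.43 and 14.7 and stromal-like cells 1.87 and 2.19. Pdgfb was thus several-fold higher in arterial-like and capillary-like cells than in valve endothelial-like cells in both libraries, with Poisson intervals that did not overlap. The small Vwf-led cluster 16 stood between, at 70.3 and 77.4 CPM. Lymphatic-like cluster 19 stood at 29.0 and 42.1 CPM. Its interval overlapped that of valve endothelial-like cells in at least 1 library. Endothelial-like cells held 91.7% of all Pdgfb UMIs in the control and 92.6% in the mutant library. The highest level outside them, among named clusters, was in macrophage-like cells, at 61.6 and 57.1 CPM. A Pdgfb UMI was found in 57.1% of control and 72.3% of mutant capillary-like cells, from libraries of unequal depth. With each cell thinned to 2000 UMIs and shallower cells left out, the shares were 29.9% of 1776 control and 30.6% of 1593 mutant capillary-like cells, 41.3% of 262 and 43.1% of 293 arterial-like cells, and 3.68% of 1151 and 4.35% of 278 valve endothelial-like cells. In stromal-like cells, which stand for background, they were 0.36% of 5000 and 0.45% of 2335.

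Pdgfd, the ligand gene for PDGFRβ that needs proteolytic activation, lies on chromosome 9 (6168584 to 6378850, plus strand). It stood at 62.7 and 58.6 CPM in arterial-like cells, 10.96 and 14.5 in capillary-like cells and 3.70 and 4.99 in valve endothelial-like cells. Arterial-like cells stood above capillary-like cells in both libraries with intervals that did not overlap. The class itself depended on the clustering. With the stricter cell filter no arterial-like group was named. In the finer clustering that name went to 52 control and 97 mutant cells led by Cma1 and Cpa3, with a median of 1364 UMIs. Cells led by Fabp4 and Rbp7, with Cxcl12, were named capillary-like there and held 45.5 and 40.2 CPM of Pdgfd. Of all Pdgfd UMIs, 74.5% in the control and 86.8% in the mutant library were in endothelial-like cells. In the thinned arterial-like cells, 5.80% of control and 5.84% of mutant cells had both Pdgfb and Pdgfd, beside 5.26% and 5.13% from the product of the single shares.

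Pdgfa, the main PDGFRα ligand gene (chromosome 5, 138976014 to 138997370, minus strand), was spread over classes that differ in origin. Its level was 120 CPM in control and 105 in mutant cells of cardiomyocyte-like cluster 9, 114 and 104 in epicardial-like cells and 89.0 and 113 in mural-like cells. These 3 classes were not in a stable order, since neighbouring intervals overlapped in at least 1 library. Stromal-like cells, which hold most of the Pdgfra, had 14.6 and 13.1 CPM of Pdgfa, valve endothelial-like cells 17.7 and 26.9, and capillary-like cells 1.97 and 2.99. Of all Pdgfa UMIs, cardiomyocyte-like cells gave the most of any named class, 510 of 1591 in the control and 559 of 1610 in the mutant library. The numerous stromal-like cells gave 29.98% and 21.9%, and mural-like cells 16.03% and 27.1%. In melanocyte-like cells the level was 232 CPM in the control and 80.1 in the mutant library, a log2 ratio of mutant over control of -1.49 (-2.48 to -0.69). It rests on 69 and 14 UMIs in 12 of 54 and 4 of 21 cells.

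Pdgfc, the other PDGFRα ligand gene (chromosome 3, 81036416 to 81214040, plus strand), was sparse, with 88 UMIs in all kept control cells and 71 in the mutant ones. Stromal-like cells held 80.7% and 71.8% of them. Cluster 0, stromal-like cells led by Mfap4 and Prss35, reached 4.29 and 4.302 CPM. In a finer clustering, an unnamed group of 90 control and 40 mutant cells led by Sfrp2, with the tendon transcription factor gene Scx among its leading genes, held 13.6 (5.87 to 26.8) and 9.52 (2.59 to 24.4) CPM. Pdgfc never reached a mean of 10 CPM in the 6 groups compared below, so it could not be called there. Stromal-like cells held 71 control and 51 mutant Pdgfc UMIs, 2.18 and 1.89 CPM, which gave a log2 ratio of -0.20 (-0.75 to 0.34). That interval leaves out a 2-fold difference in either direction. Valve endothelial-like cells held only 10 and 4 UMIs, and their interval of -2.34 to 1.58 does not.

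**Figure D1:**
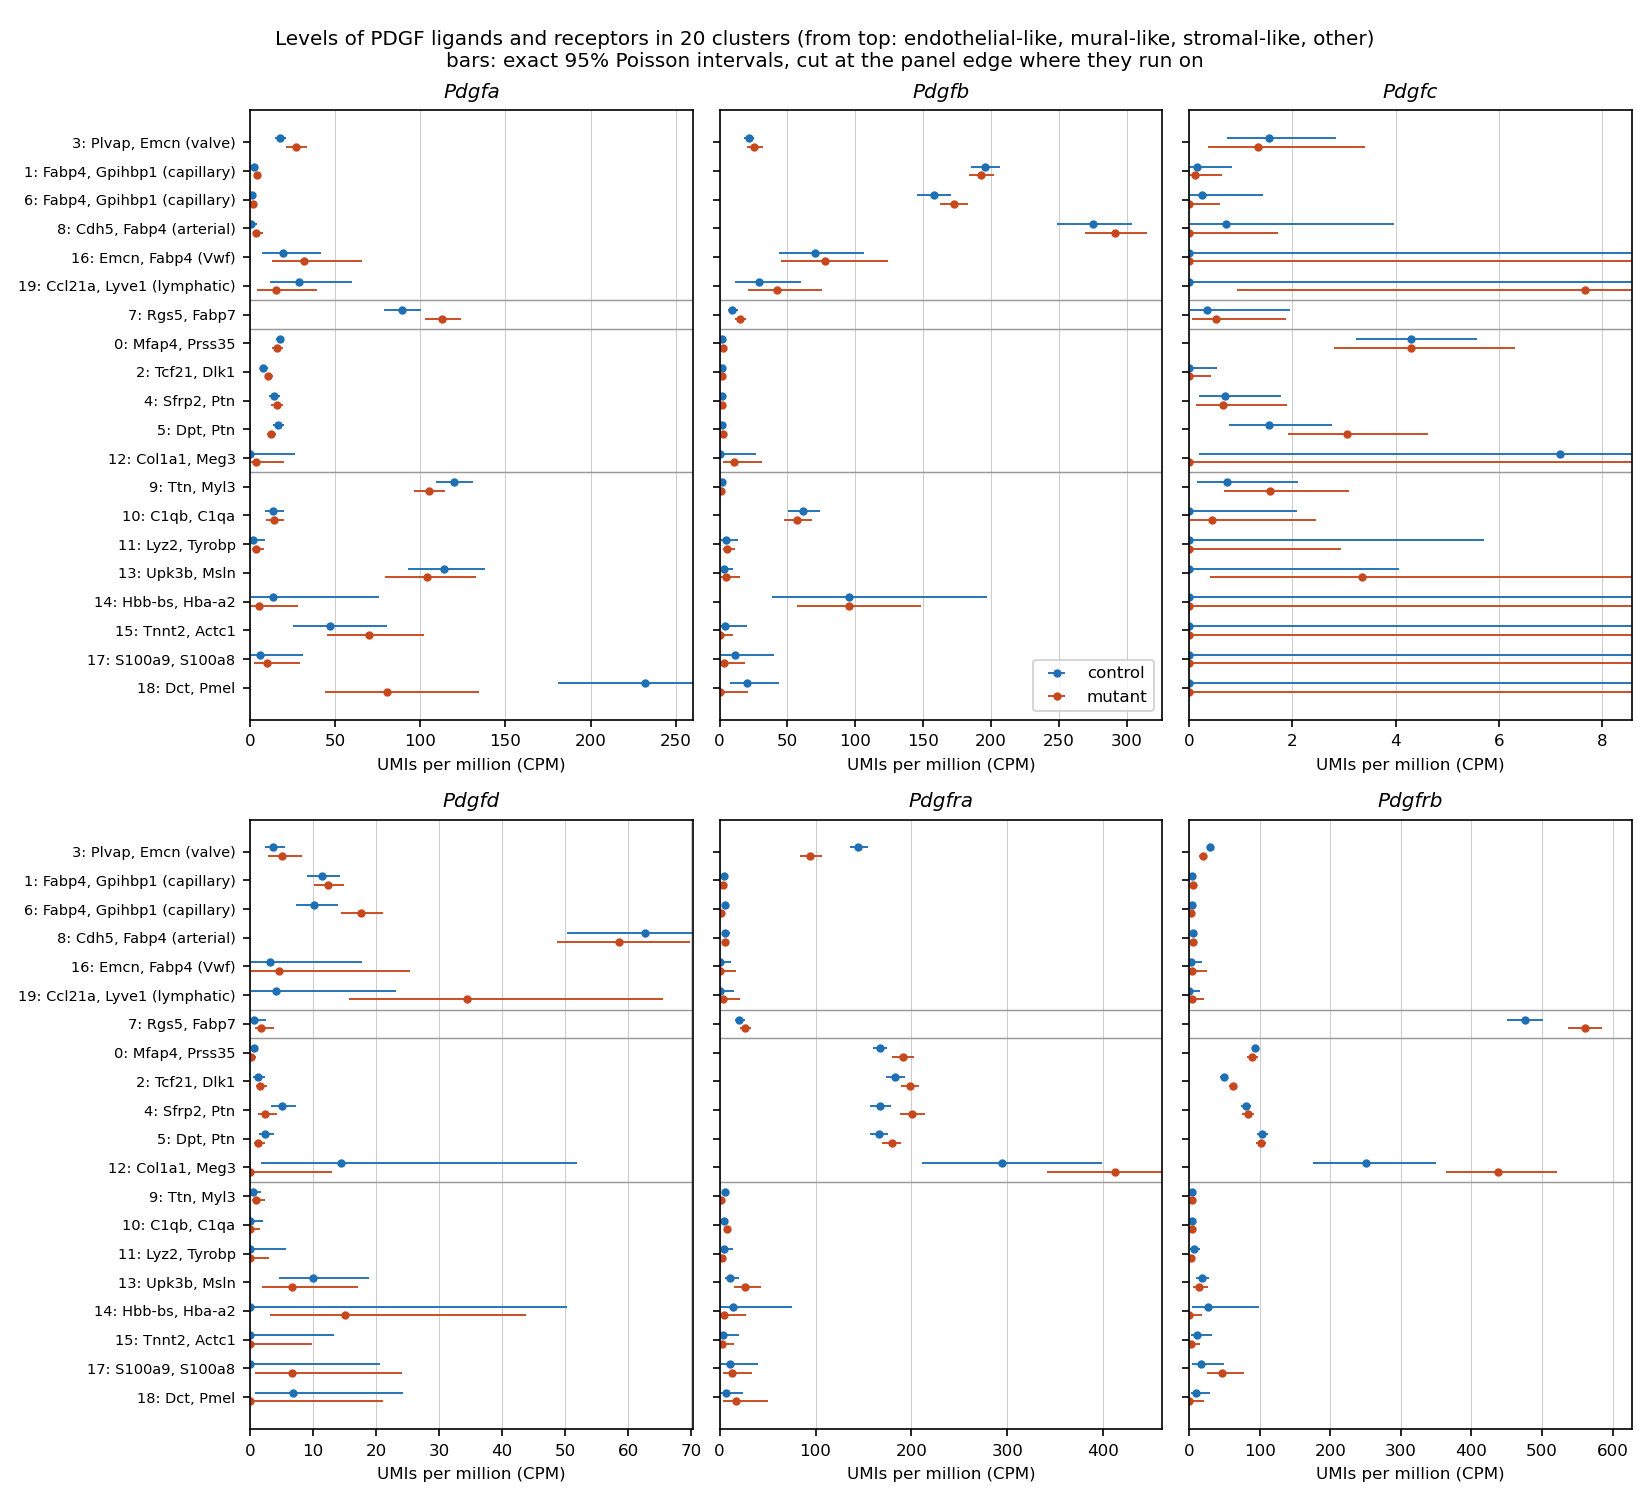
Level of each PDGF gene in CPM (horizontal axis, its own scale in each panel) in the 20 clusters (rows, with number and leading genes), control in blue and mutant in red with exact 95% Poisson intervals. Pdgfb and Pdgfd peak in arterial-like cluster 8, Pdgfrb in mural-like cluster 7, and Pdgfra in the stromal-like clusters with valve endothelial-like cluster 3 next.

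The receptor genes were also divided, with 1 overlap. Pdgfra, the gene for PDGFRα (chromosome 5, 75152292 to 75198215, plus strand), stood at 171 CPM (166 to 175) in control and 194 (190 to 199) in mutant stromal-like cells. The 4 larger stromal-like clusters lay close together, between 166 and 183 CPM in the control and between 179 and 201 in the mutant library. Shallow cluster 12, whose cells had a median of 1374.5 UMIs, stood higher, at 294 and 412. Mural-like cells had 20.6 and 26.6 CPM, and capillary-like cells 4.59 and 3.06. Valve endothelial-like cells lay between the stromal-like clusters and all the rest, at 145 CPM (136 to 154) and 94.8 (84.1 to 106).

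Pdgfrb, the gene for PDGFRβ (chromosome 18, 61045150 to 61085061, plus strand), was highest in mural-like cells, at 476 CPM (451 to 502) in the control and 560.4 (537 to 584) in the mutant library. Stromal-like cells had 84.8 and 86.4 CPM, valve endothelial-like cells 29.0 and 19.0, and capillary-like cells 3.37 and 4.05. Mural-like cells were therefore above every other named class in both libraries. The more numerous stromal-like cells held 62.7% and 49.7% of all Pdgfrb UMIs, and mural-like cells 30.9% and 46.3%. Among stromal-like clusters the Tcf21 and Dlk1 cells of cluster 2 had the least, 48.8 and 62.0 CPM, and the Dpt and Ptn cells of cluster 5 had 103 and 101. Pdgfb, Pdgfd, Pdgfra and Pdgfrb were among the genes that formed the clusters, so these levels are a description. With all 6 genes left out of the clustering, Pdgfra stood at 144 and 94.8 CPM in valve endothelial-like cells and Pdgfrb at 515 and 616 in mural-like cells.

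Most cells with a receptor UMI had only 1 of them. Thinned to 2000 UMIs, 23.9% of control and 27.3% of mutant stromal-like cells had Pdgfra alone, 10.8% and 10.8% had Pdgfrb alone, and 3.81% and 4.72% had both. The product of the single shares was 4.04% and 4.97%, so joint detection was close to what separate detection gives. As counted, without thinning, both receptors were found in 19.5% and 34.8% of stromal-like cells, from libraries of unequal depth. In 430 control and 390 mutant mural-like cells, 55.9% and 61.6% had Pdgfrb alone and 2.50% and 2.92% both. Of the mural-like cells, 9.26% and 12.8% had both Pdgfa and Pdgfrb after thinning, beside products of 8.78% and 12.7%.

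**Figure D2:**
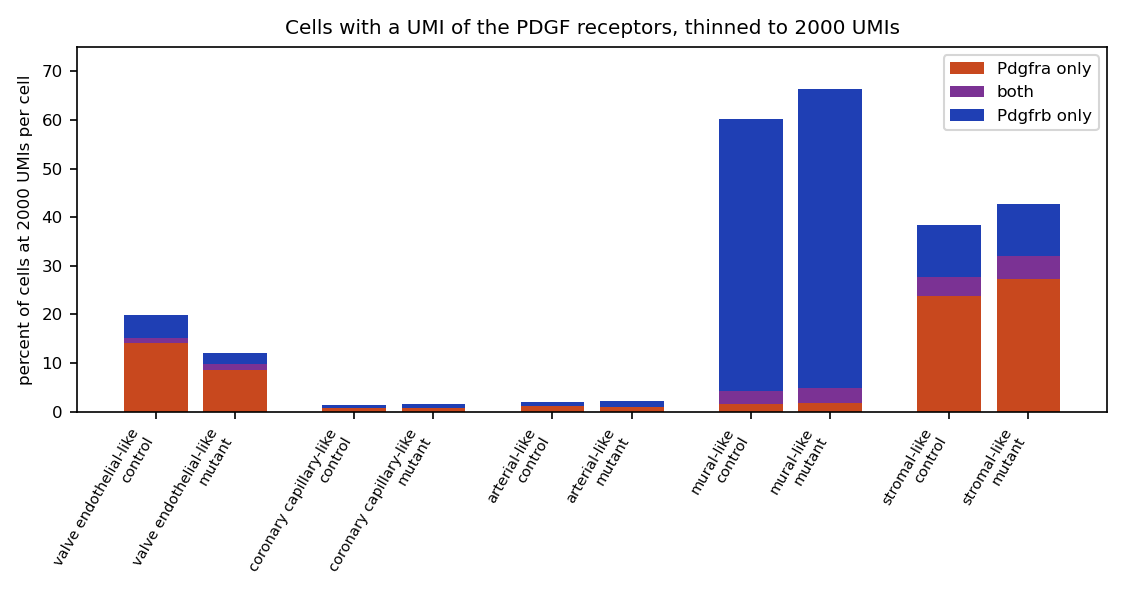
Percent of cells (vertical axis) with a UMI of Pdgfra alone, Pdgfrb alone or both after thinning each cell to 2000 UMIs, by class and library. Mural-like bars are almost all Pdgfrb alone, whereas stromal-like bars are led by Pdgfra alone and valve endothelial-like bars show 14.1% and 8.67% Pdgfra alone.

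Pdgfra in valve endothelial-like cells was concentrated in one of 2 finer clusters. The finer cluster led by Wnt4, Nts and Hapln1 (435 control and 92 mutant cells) had 329 CPM in the control and 224 in the mutant library, and the one led by Plvap, Emcn and Ednrb (766 and 195 cells) had 30.3 and 12.5. The Wnt4-led cells thus carried Pdgfra at 192% and 115% of the level of stromal-like cells of the same library. Their summed level of 11 stromal markers, all 11 detected, was 11.9% and 5.61% of the stromal-like level, and their 10 endothelial markers, all detected, summed to 3346 and 3476 CPM. For Pdgfrb the same cells stood at 34.2% and 37.7% of the stromal-like level. Pooled over cells, the stromal marker level was higher where a Pdgfra UMI was found. In control valve endothelial-like cells with a Pdgfra UMI the 11 markers summed to 3110 CPM against 1578 in cells without one, and in the mutant library to 1573 against 1172. Between the finer clusters the marker order varied. The Wnt4-led and Plvap-led cells had 2527 and 1591 CPM of the markers among female-type control cells. In the mutant library they had 1183 and 1338 among female-type and 1411 and 1086 among male-type cells. The part of stromal marker transcripts in the detection of Pdgfra was not tested.

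**Figure D3:**
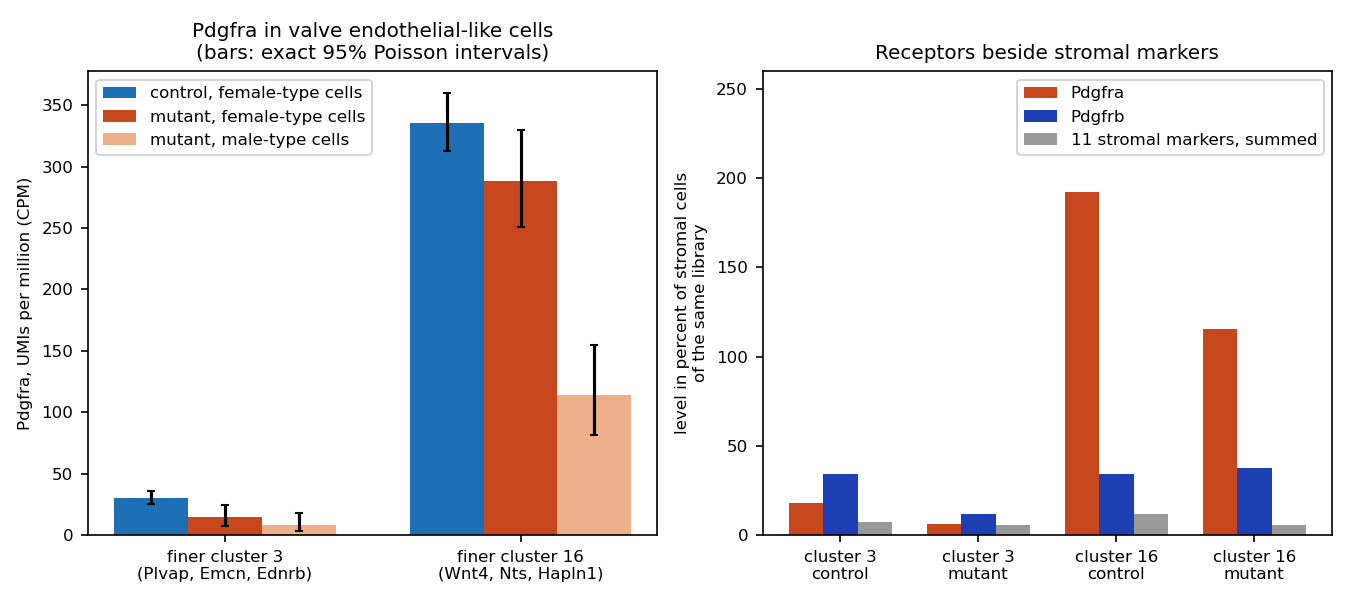
Left, Pdgfra in CPM in the 2 finer valve endothelial-like clusters by library and sex type, with exact 95% Poisson intervals; right, Pdgfra, Pdgfrb and 11 summed stromal markers in percent of their level in stromal-like cells of the same library. Pdgfra exceeds 100% in the Wnt4-led cluster 16, where the stromal markers reach 11.9% and 5.61%, and male-type mutant cells have the lowest bars.

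The mutant library was then set against the control library in each group. A gene was called when its mean level was at least 10 CPM, its fold at least 1.5 and its interval left out a log2 ratio of 0. In valve endothelial-like cells, which had the lowest Dicer1 ratio of the 6 groups, 3 of 4 measured PDGF genes were called, where 12.4% of the 8639 genes tested were. Pdgfra was lower in the mutant, at a log2 ratio of -0.61 (-0.81 to -0.42), and so was Pdgfrb, at -0.61 (-1.07 to -0.18). Pdgfa was higher, at 0.60 (0.17 to 1.02), and Pdgfb was not called, at 0.24 (-0.19 to 0.65). All 3 calls lie just past the 1.5-fold limit. At a limit of 2-fold, 0 of the 4 were called, where 3.19% of genes were.

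**Figure D4:**
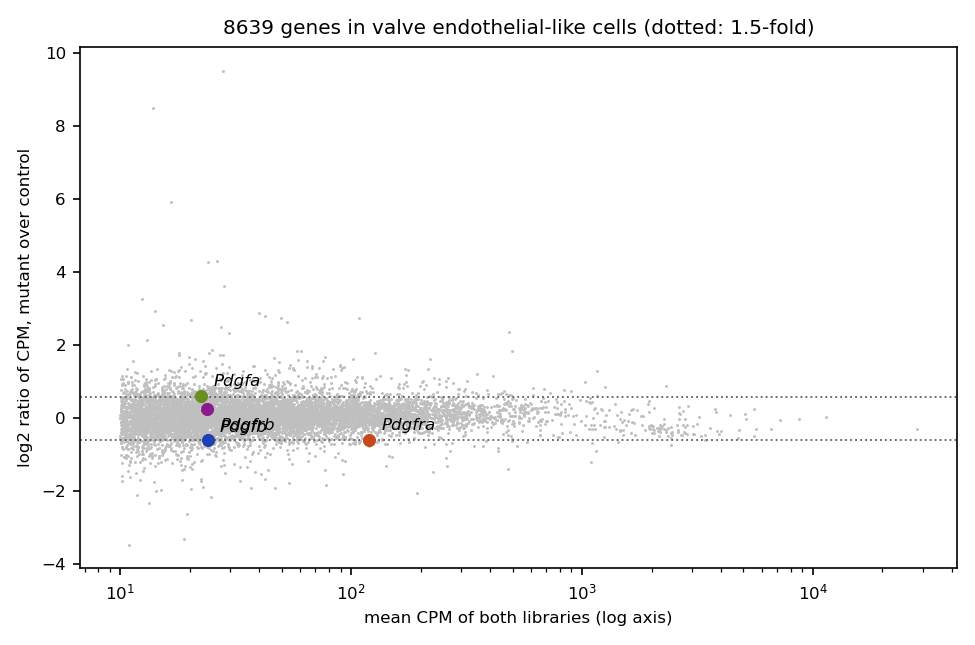
Log2 ratio of mutant over control (vertical axis) against mean CPM (horizontal log axis) for the 8639 genes tested in valve endothelial-like cells, each grey point 1 gene, with 4 PDGF genes in colour. Pdgfa lies at 0.60 and Pdgfra and Pdgfrb at -0.61, at the edge of the dotted 1.5-fold lines.

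Over the valve endothelial-like cells as a whole, the difference in Pdgfra went along with sex type. Female-type cells had 146 CPM in the control and 138 (120 to 157) in the mutant library, a log2 ratio of -0.081 (-0.30 to 0.13) from 1164 and 153 cells. The 105 male-type mutant cells had 42.9 CPM (31.5 to 57.0), a ratio of -1.75 (-2.22 to -1.34) to female-type control cells. Among the mutant cells alone, male-type and female-type cells therefore differed by more than the 2 libraries did. Within the Plvap-led finer cluster the female-type cells did differ, at 30.2 CPM (25.0 to 36.2) in the control and 14.4 (7.67 to 24.6) in the mutant library. The mutant value rests on 13 UMIs. Male-type mutant cells there had 8.15 CPM (2.99 to 17.7). In the Wnt4-led finer cluster, female-type control cells had 336 CPM, female-type mutant cells 288 and the 27 male-type mutant cells 114. That cluster held 37.9% of the valve endothelial-like cells of female type and 25.7% of those of male type in the mutant library, and 35.8% of the female-type ones in the control. Sex type also separates embryos of the mutant pool, and its part was not tested. Among female-type cells none of the 4 PDGF genes was called, where 14.7% of genes were.

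Pdgfrb and Pdgfa differed less between the sex types of mutant valve endothelial-like cells. Pdgfrb stood at 21.9 CPM (15.4 to 30.4) in female-type and 18.2 (11.1 to 28.2) in male-type mutant cells. Pdgfa stood at 23.8 (16.9 to 32.5) and 26.5 (17.7 to 38.0). In the Plvap-led finer cluster Pdgfrb was 28.8 CPM in the control and 10.3 in the mutant library, whereas in the Wnt4-led one it was 29.0 and 32.5. Pdgfa in the Wnt4-led cluster was 26.6 and 42.8 CPM, a log2 ratio of 0.69 (0.13 to 1.24), and Pdgfb there was 18.9 and 32.5, at 0.79 (0.13 to 1.43). Both pass the limits, where 15.4% of genes in the Wnt4-led cluster did. Pdgfrb in the Plvap-led cluster also passes them, where 13% of genes did.

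Over all endothelial-like cells, 1 of 3 measured PDGF genes was called, Pdgfra, where 3.97% of genes were. Its level was 52.1 CPM in the control and 16.6 in the mutant library, a log2 ratio of -1.64 (-1.83 to -1.47). The share of valve endothelial-like cells moved with it: they were 11.6% of control and 4.64% of mutant cells. When each cluster was given the same weight in both libraries, the ratio was -0.59. Pdgfb, at 0.37, and Pdgfd, at 0.56, were not called, and with the same weights in both libraries they were at 0.045 and 0.18. Pdgfrb was not among the 3, since its mean of 9.24 CPM missed the floor of 10. It stood at 12.1 and 6.34 CPM, a ratio of -0.94 (-1.26 to -0.62) from 232 and 131 UMIs. With the same cluster weights Pdgfrb stood at 10.03 and 8.07 CPM. In female-type cells Pdgfd was at 0.82 (0.52 to 1.10), past the limits. The 3.97% covers all endothelial-like cells and not the female-type ones alone.

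In neither group of vessel endothelium was a PDGF gene called. In capillary-like cells as a whole this was 0 of 2 measured genes, where 0.828% of genes were called, with Pdgfb at a log2 ratio of 0.02 (-0.07 to 0.10) and Pdgfd at 0.40 (0.07 to 0.74). Within the 2 capillary-like clusters the Pdgfd intervals overlapped. It was 10.2 and 17.54 CPM in cluster 6, a ratio of 0.77 (0.24 to 1.34) that passes the limits, where 2.51% of genes did, and 11.4 and 12.3 CPM in cluster 1, at 0.11 (-0.32 to 0.55). By sex type, Pdgfd in capillary-like cells was at 0.71 (0.31 to 1.10) among female-type cells, also past the limits, and at 0.066 (-0.38 to 0.50) for male-type mutant against female-type control cells. The 0.828% covers all capillary-like cells and not the female-type ones alone. In arterial-like cells 0 of 2 measured genes were called, where 3.58% of genes were, with Pdgfb at 0.08 (-0.10 to 0.27) and Pdgfd at -0.10 (-0.50 to 0.31). For Pdgfb these intervals leave out a 1.5-fold difference between the 2 libraries in either direction.

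In mural-like cells 0 of 4 measured genes were called, where 3.64% of genes were. Pdgfrb had a log2 ratio of 0.24 (0.14 to 0.33), Pdgfa 0.34 (0.12 to 0.57), Pdgfra 0.36 (-0.11 to 0.86) and Pdgfb 0.63 (-0.04 to 1.36). The 9 mural markers summed to 4118 CPM in the control and 5039 in the mutant library, a shift in the same direction as Pdgfrb whose part in it was not tested. In stromal-like cells 0 of 3 were called, where 2.62% were. Pdgfra was at 0.19 (0.13 to 0.24), Pdgfrb at 0.03 (-0.05 to 0.11) and Pdgfa at -0.16 (-0.36 to 0.04). The Pdgfrb ratio had no stable sign: it was -0.17 (-0.27 to -0.07) with the stricter cell filter and 0.15 (0.08 to 0.22) with cells classed one by one. The Pdgfra ratio lay between 0.11 and 0.26 in the 4 larger stromal-like clusters, with an interval that reaches 0 in cluster 5. The finer stromal-like clusters went both ways, shown by 2 that were chosen after their values were seen. In the one led by Prss35 and Car3 (918 and 183 cells) Pdgfra was 203 and 155 CPM, at -0.39 (-0.59 to -0.20), and in the one led by Matn4 and Col9a3 (669 and 255 cells) it was 166 and 304, at 0.87 (0.70 to 1.05), past the limits, where 9.42% of genes were. In shallow cluster 12 Pdgfrb was 251 and 437 CPM, a ratio of 0.78 (0.25 to 1.38) that rests on 35 and 124 UMIs.

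**Figure D5:**
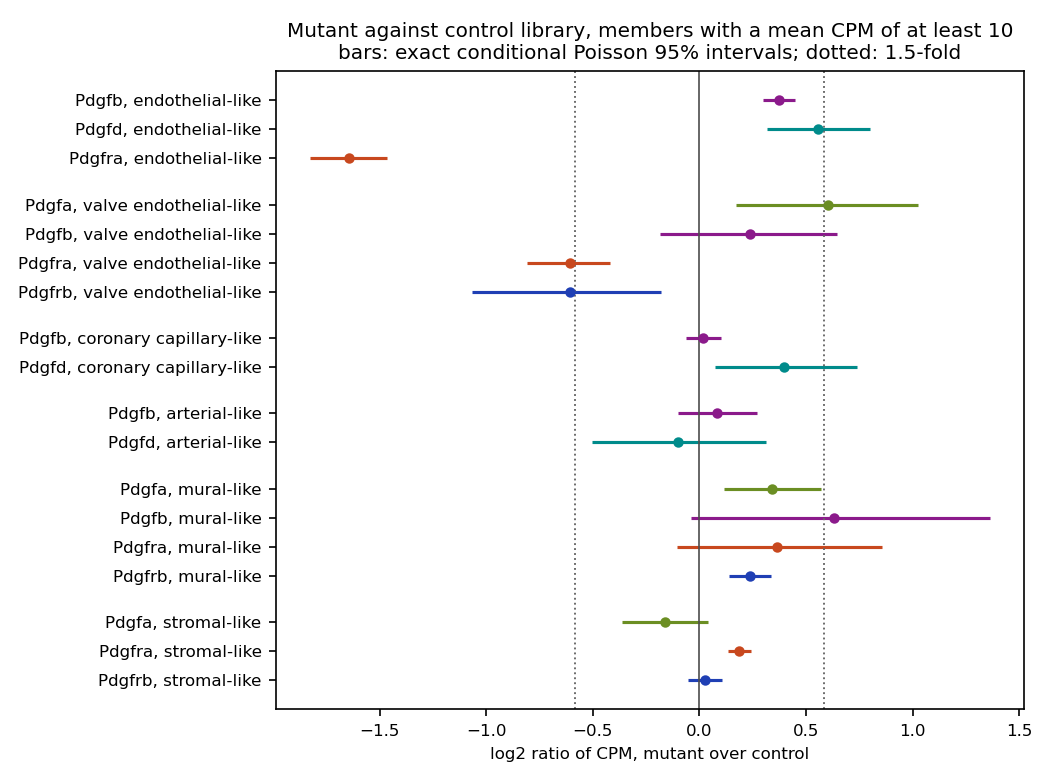
Log2 ratio of mutant over control (horizontal axis) for each PDGF gene with a mean of at least 10 CPM in each group, with exact conditional Poisson 95% intervals and dotted lines at 1.5-fold. Pdgfb lies at 0.02 and 0.08 in capillary-like and arterial-like cells, while Pdgfra lies at -1.64 in all endothelial-like cells and -0.61 in valve endothelial-like cells.

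The rest of the pathway was followed in 3 lists, 10 genes for ligand processing and binding, 22 for signalling near the receptor and 18 response genes. In valve endothelial-like cells 1 of 6 measured processing and binding genes was called higher and 2 lower, where 12.4% of all genes were called, with a median ratio of -0.07 beside 0.05 over all genes. Plat, the gene for tissue plasminogen activator, which activates PDGF-C, was 59.9 and 106 CPM, at 0.83. Pcsk5, which encodes a proprotein convertase, was 77.8 and 48.2, at -0.69. Pdgfrl, a gene for a protein resembling a receptor ectodomain, was 27.3 and 10.97 CPM, at -1.30. Of 20 measured signalling genes only the kinase gene Map2k1 was called, at 0.98, and of 12 response genes Sgpl1, at 1.44, and Csrnp1, at 0.90, were called higher and none lower. Of the valve endothelial-like cells, 203 control and 25 mutant cells had no collagen UMI (Col1a1, Col1a2 and Col3a1). Among them 1 of 13 response genes was higher and 4 were lower. The 12.4% of all genes covers the whole group and not this subset, for which no such share is given. Levels in 25 mutant cells rest on few UMIs, so these counts describe the subset only.

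Outside the valve endothelium few pathway genes were called. In stromal-like cells Plat was 56.2 and 91.0 CPM, at 0.70, the furin-like protease gene Pcsk6 was at 0.76, and the ETS factor gene Etv4 was at 0.63, making 2 of 8 processing genes and 1 of 15 response genes higher, where 2.62% of all genes were called. With equal cluster weights the processing count was 0 of 8. Of the mural-like genes, Pik3r1, a regulatory subunit of PI3-kinase, was at 0.66 and Etv5 at 0.67, 1 of 21 signalling and 1 of 16 response genes, where 3.64% of all genes were called. Arterial-like cells had Schip1 at 0.70 and the early response gene Egr1 at 0.66, making 2 of 11 response genes, where 3.58% of all genes were called. In capillary-like cells none of the 4, 20 and 13 measured genes of the 3 lists was called. Over all endothelial-like cells only Pcsk5 was, at -0.73.

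Over the 20 clusters, the genes whose log2 levels ran most like each PDGF gene were sought among those reaching 50 CPM in a cluster. For Pdgfb they were Clec1a (Pearson r 0.94), Rasgrp3, Tspan13, Sox17 and Ctla2b, and for Pdgfd Actn4 (0.87), Efnb2, Efna1, Plekhg5 and Dll4. For Pdgfra they were Postn (0.94), Apcdd1, Pdgfrl, Sdk2 and Frem1, and for Pdgfrb Col6a3 (0.93), Fap, Heyl, Notch3 and Col6a1. Pdgfa and Pdgfc had weaker matches, led by Fuom at 0.79 and by Scx at 0.80. The value for Scx was 0.57 in the control and 0.52 in the mutant library alone, beside 0.78 and 0.72 for Fuom. Among the family, the 2 receptors were the most alike pair, at 0.82, with 0.83 in the control and 0.75 in the mutant library. Pdgfb and Pdgfd were at 0.65, with 0.31 in the control and 0.71 in the mutant library, and in the control Pdgfc with Pdgfra stood higher, at 0.69. Pdgfb ran against Pdgfra at -0.53. All clusters come from the same 2 libraries and differ in depth, so these values describe the clusters only.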

How the data were processed

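Each of the 2 libraries (1 per genotype) came as raw UMI counts per gene and barcode, deposited by the authors, for which the submitters' processing notes name Cell Ranger 5.0.0 and mm10. Counting options, strand use among them, are not given in the sources used here. Antisense genes overlap Pdgfa, Pdgfb, Pdgfc and Pdgfra, and Ddi1 overlaps Pdgfd on the other strand, so reads of such pairs may not be told apart.

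Barcodes with at least 500 genes, 1000 UMIs and under 20% mitochondrial UMIs were kept, Scrublet doublets were removed (scanpy 1.11.5), and both libraries were clustered together (2000 variable genes, 30 components, 15 neighbours, leidenalg 0.10.2, resolution 0.8; finer clusters at 1.5). Total depth was 70221728 and 69475632 UMIs. A cluster took a marker list's name when at least 3 markers were detected in 10% of its cells at 1.5-fold the median cluster. Counts were summed per library and group and scaled to CPM, with exact Poisson intervals. The log2 ratio (0.5 counts added) has an exact conditional Poisson interval, and all intervals are at 95%. The calculation was tested on counts simulated from the Poisson model that the intervals assume. Such counts hold no spread between cells, embryos or libraries. No p-value was computed.

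Named besides the 6 genes were, per gene, the 5 genes with the highest correlation of log2(CPM + 1), up to 4 called genes per pathway list and group, and Dicer1 and Nfatc1. Positions are from GENCODE M21 on GRCm38. Of 18 microRNA families listed, 16 were searched. The PDGF genes, marker lists and pathway lists were chosen with earlier results of these data known. Alternatives covered filters, doublets, clustering, cell weighting, sex type and call limits. The male-type comparison, stromal-like cells without cluster 12, the endothelial subgroups and the cells without collagen UMIs were added after seeing the data.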

Additional observations from a re-analysis of the deposited data

Results flagged for a closer look

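Both receptor genes differed between the libraries in opposite directions in different classes, with intervals on opposite sides of 0. The difference between the classes itself was not tested, because each genotype is 1 library. Pdgfra had a log2 ratio of mutant over control of -0.61 in valve endothelial-like cells and 0.19 in stromal-like cells. Pdgfrb had a ratio of -0.61 in valve endothelial-like cells and 0.24 in mural-like cells. The opposite sides of 0 did not hold under every alternative. Pdgfra in valve endothelial-like cells was at -0.081 (-0.30 to 0.13) in female-type cells. For Pdgfrb, the mural-like ratio was 0.12 (-0.0083 to 0.24) with the stricter cell filter, and the valve endothelial-like one was -0.40 (-0.97 to 0.11) in female-type cells.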

How the results depend on the processing

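Of 175 recomputed log2 ratios over 18 gene and group pairs, 143 stayed within the counting interval of the value reported, 31 moved and 1 reversed; the cause was not tested. The reversal was Pdgfra in valve endothelial-like cells when each cell was classed on its own marker genes, at 2.15, where only 50 control and 6 mutant cells remained; Pdgfa there was 3.48. In the same cluster Pdgfra was -0.081 in female-type cells and -1.75 for male-type mutant against female-type control cells. In its cells without a UMI of Col1a1, Col1a2 and Col3a1 (203 and 25), Pdgfa was 1.46 and Pdgfrb -1.71, with intervals that include 0. Pdgfra over all endothelial-like cells was -0.92 in female-type cells, -0.59 with equal cluster weights, -1.85 as a mean over cells and -2.56 for male-type mutant against female-type control cells. The count of PDGF genes called in endothelial-like cells, 1 as reported, was 2 with the stricter cell filter or in female-type cells and 0 at a floor of 50 CPM. In valve endothelial-like cells, 3 as reported, it was 2 with the stricter cell filter, with cells classed one by one, with ratios centred on the median gene, or for male-type mutant against female-type control cells, 1 without doublet removal, 1 at a floor of 50 CPM, and 0 in female-type cells, in cells without collagen UMIs or at 2-fold. In mural-like cells, 0 as reported, it was 1 without doublet removal, 2 in female-type cells and 1 with no condition on the interval. In stromal-like cells it was 0 under all 14 alternatives, although Pdgfrb there moved in 6 of 11, from -0.17 to 0.37. The share of all genes called also depends on the setting. In valve endothelial-like cells it was 12.4% as reported and 3.19% at 2-fold. The counts of PDGF genes above are given without that share and describe the settings only. Among pathway lists, response genes called lower in valve endothelial-like cells ranged from 0 to 4 and processing genes called higher in stromal-like cells from 0 to 2. The 4 came from the cells without collagen UMIs, and these ranges too are given without the share of all genes. No paired analysis was possible because each genotype is 1 library. Many levels under about 10 CPM rest on few UMIs, which limits Pdgfc in every group and Pdgfd outside vessel endothelium.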
